A study of Mus musculus with 6 samples.

Results

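Collagen genes were examined in freshly isolated muscle stem cells (MuSCs) of adult mice with and without a deletion in Taf4, the gene named Taf4a in the sample labels. A row of the deposited table was taken as a collagen gene when it was protein-coding, its symbol had the form of a collagen alpha chain (Col, a number, a, a number) and its mean over the 6 libraries reached 5 normalized counts. This gave 43 genes, out of 44 collagen rows and 22081 genes in all, of which 15060 were protein-coding. They fell into 11 fibrillar, 6 basement membrane, 9 FACIT, 4 membrane, 2 multiplexin, 5 beaded filament and 3 short chain genes, with 3 others outside these classes. The row left out was Col6a4, with 0, 1 and 3 normalized counts in the control libraries and 5, 3 and 4 in those labelled Taf4asKO (mean 2.67). The member nearest to the limit was Col25a1, with a mean of 10.5.

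The series holds 3 control libraries and 3 libraries labelled Taf4asKO, all from C57BL/6 mice. In Taf4asKO animals a tamoxifen-inducible Cre recombinase under the control of Pax7 (Pax7CreERT) removes a pair of exons flanked by loxP sites (Taf4a flox/flox), so that recombination is limited to cells that use the Pax7 promoter when tamoxifen is given. The study describes its controls as littermates that also carry the flox/flox alleles, with or without the Cre allele. For the libraries used here the labels give the control genotype only as Control, and whether these mice received tamoxifen or carried Cre is not given. Cells came from digested limb and trunk muscle, and the study used females and males. According to its methods, cells negative for SCA1, CD45 and CD31 were sorted by integrin alpha 7 or by the fluorescence of a Pax7-ZsGreen reporter. The study lists this reporter as present or absent in both genotypes, and its methods do not say which route these libraries took. Nothing in the labels says whether each library came from a different animal, so p-values measure the spread between these libraries, which may in part be technical.

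Values are normalized counts, that is reads per gene divided by a size factor of each library and rounded to whole numbers by the authors. Library totals lay between 12338676 and 14551732 normalized counts, and the reads estimated behind them between 10.6 M and 17.6 M (M, 1e6). The targeted gene did not separate the labels. Taf4 had 541.7 ± 67.8 normalized counts in control and 590 ± 35.8 in the libraries labelled Taf4asKO (SD, n = 3), with a log2 fold change of 0.13 (SE 0.12, adjusted p 0.524, limma). The gene total also counts exons outside the deleted pair, so it does not check the deletion, and every direction below refers to the groups as labelled. For Taf4asKO MuSCs the study itself reports efficient deletion by genomic PCR and nearly no Taf4a transcript or protein by RT-qPCR and western blot. Those measures are not said to come from these libraries.

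Collagens are secreted or membrane-bound proteins of 3 alpha chains wound around each other. Fibrillar collagens (types I, II, III, V, XI, XXIV and XXVII) form the fibrils of connective tissue, with collagen V and XI as the chains on which thicker fibrils of type I, II or III are nucleated. Collagen IV forms the sheet-like network of basement membranes, FACIT collagens (fibril-associated collagens with interrupted triple helices) decorate fibrils, membrane collagens span the plasma membrane and can be shed, and multiplexins (types XV and XVIII) sit at the outer face of basement membranes and carry endostatin domains. Quiescent MuSCs lie between the myofibre and its basement membrane. They produce collagen V under the control of Notch signalling, and this collagen acts back on them through the calcitonin receptor (Calcr), which is why collagen V is described as part of the quiescence niche.

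Promoter sequences are shown for the head-to-head pair Col4a1 and Col4a2, which share a start region but differed in this comparison, and for Col3a1, the collagen with the highest level per kilobase in control. Col4a1 lies on chromosome 8 (11198423 to 11312826, minus strand, mm10) and Col4a2 runs the other way from 11312805 to 11449287, so that both genes overlap by 22 bases at their first exons. Col3a1 lies on chromosome 1 (45311538 to 45349706, plus strand). Each window is the RefSeq promoter of GRCm38.p6, 250 bases before to 50 bases after the transcript start, written 5′ to 3′ on the strand of the gene. Capitals mark a CCAAT box on either strand (CCAAT or its complement ATTGG, the motif that nuclear factor Y binds) in the first and second window, and TATAAA on the gene's strand in the third.
Col4a1, chr8:11312777-11313076, minus strand: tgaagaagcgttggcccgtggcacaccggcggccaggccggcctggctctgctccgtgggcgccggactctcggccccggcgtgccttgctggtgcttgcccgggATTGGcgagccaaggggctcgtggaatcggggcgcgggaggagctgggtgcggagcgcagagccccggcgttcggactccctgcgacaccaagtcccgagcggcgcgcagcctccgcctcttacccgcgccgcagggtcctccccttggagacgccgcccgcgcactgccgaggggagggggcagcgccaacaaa
Col4a2, chr8:11312555-11312854, plus strand: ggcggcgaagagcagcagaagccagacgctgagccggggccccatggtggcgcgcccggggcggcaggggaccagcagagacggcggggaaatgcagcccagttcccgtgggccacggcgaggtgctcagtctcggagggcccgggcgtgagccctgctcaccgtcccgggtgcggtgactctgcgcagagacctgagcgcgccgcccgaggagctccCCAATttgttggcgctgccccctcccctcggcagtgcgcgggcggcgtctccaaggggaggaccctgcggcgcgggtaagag
Col3a1, chr1:45311288-45311587, plus strand: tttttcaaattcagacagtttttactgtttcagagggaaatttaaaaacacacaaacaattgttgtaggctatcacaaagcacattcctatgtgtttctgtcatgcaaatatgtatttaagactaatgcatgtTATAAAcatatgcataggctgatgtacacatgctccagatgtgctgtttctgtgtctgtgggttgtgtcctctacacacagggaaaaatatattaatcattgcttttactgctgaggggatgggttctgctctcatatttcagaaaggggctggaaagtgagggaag
The windows of Col4a1 and Col4a2 share 78 bases, and the marked boxes begin 145 and 32 bases before the respective start. In the Col3a1 window TATAAA begins 117 bases before the start. Of the 43 collagen genes, 34 had a RefSeq window. A CCAAT box was present for 12 of these (35.3%) and for 42.1% of tested genes with a window, and TATAAA for 5 (14.7%) and for 5.33% of those tested genes.

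Among the collagen genes, 4 fell and 5 rose in the libraries labelled Taf4asKO. The falls were Col3a1, Col15a1, Col7a1 and Col26a1, and the rises were Col4a2, Col20a1, Col27a1, Col18a1 and Col28a1. A gene was called with a limma adjusted p under 0.05 and a fold of at least 1.3, a log2 fold change of 0.379, on the log2(value + 1) scale. This was 20.9% of the collagen genes, where 12.6% of all 18562 tested genes and 15.1% of tested protein-coding genes were called. By direction, 9.3% of the collagen genes were lower and 11.6% higher, against 6.71% and 5.93% of all genes tested. The share of lower calls among collagens was thus close to that of all genes, and both counts rest on few genes. With the pericyte and smooth muscle markers as a covariate the 5 rises were smaller and lost their calls (limma), and Col15a1 lost its call at a fold change of like size (-1.13 against -1.06, limma adjusted p 0.0588). Over all genes this covariate lowered the calls from 2347 to 795, and the higher calls from 1101 to 250. For 5 of its 6 markers the groups did not overlap, so the covariate itself carries part of the group difference. In these bulk libraries a change in RNA per cell and a change in the share of cells of a type cannot be told apart, here or in any result below.

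Most collagen genes had a fold change above 0. In 31 of 43 genes the log2 fold change was above 0, or 72.1%, with a median of 0.32. Of all tested genes 50.4% were above 0, with a median of 0.004, and of tested protein-coding genes, to which all collagen genes belong, 54.3%, with a median of 0.042. Control replicate 1 was the lowest of the 6 libraries for 58.1% of the collagen genes and for 20.7% of all tested genes. No overlap between the groups was seen for 5 collagen genes in the lower and 6 in the other direction, or 11.6% and 14%, against 16.4% and 16.6% of all genes (33% in either direction). Besides the called genes these were Col6a6 (lower) and Col17a1 (higher). When the replicate number was added as a block, 5 collagen genes were lower and 14 higher (limma), where 8.98% and 9.09% of all genes were, or 18.1% in either direction. The block assumes a pairing by number, taken from weak correlations in these same values and not from the labels. The plot of fold changes by class shows that most of the genes added by the block had wide intervals without it.

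**Figure D1:**
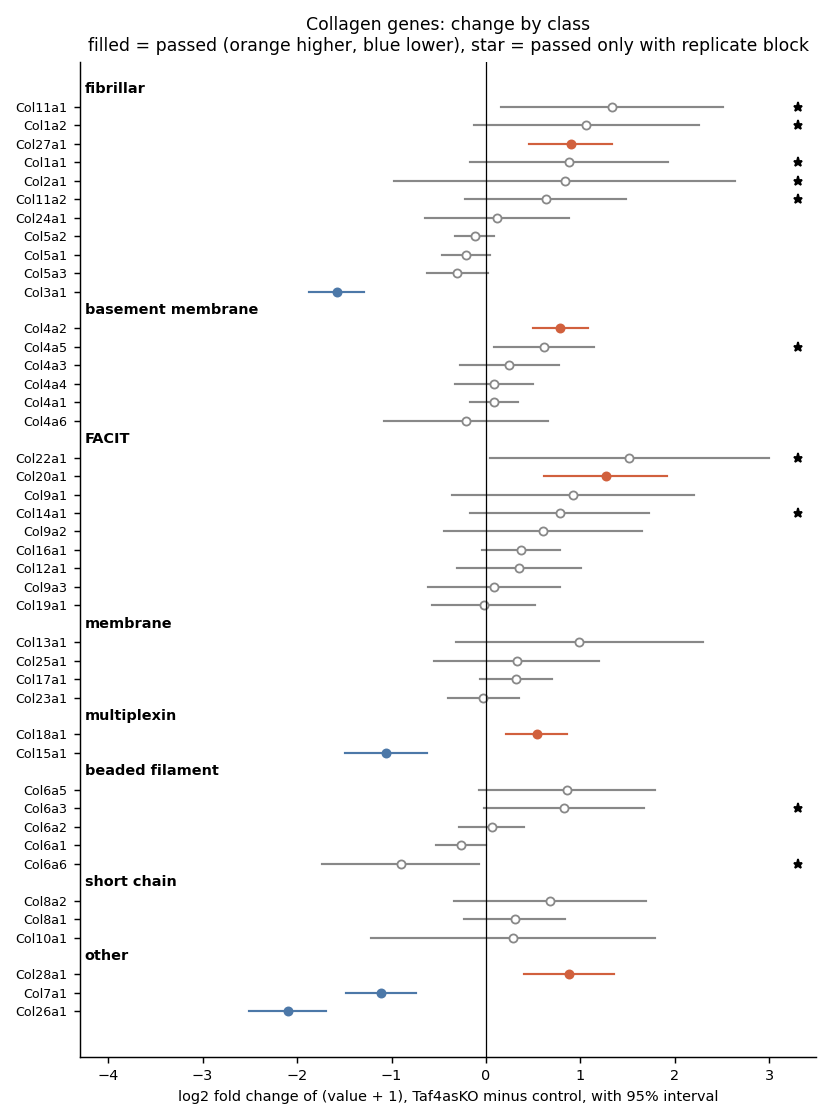
Log2 fold change of (value + 1), libraries labelled Taf4asKO minus control, for the 43 collagen genes by class, with 95% intervals from limma (n = 3 libraries per group). Filled points passed the threshold, 4 lower (blue) and 5 higher (orange), and stars mark genes called with the block of replicate numbers and not called without it, among them Col1a1, Col1a2, Col11a1 and Col22a1.

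Collagen levels were compared between genes per kilobase of the transcript with the longest coding sequence. In control the highest mean was that of Col3a1, with 8449 ± 133 normalized counts per kilobase (SD, n = 3), followed by Col4a1 with 3478 ± 275, Col1a1 with 2841 ± 1853, Col5a3 with 2155 ± 368 and Col6a1 with 2138 ± 298. The levels of Col5a3 and Col6a1 differed by less than their spread, and that of Col1a1 ran from 977 to 4683 and so covered those of Col4a1, Col5a3 and Col6a1. In the libraries labelled Taf4asKO the order was led by Col1a1 with 4530 ± 1463 per kilobase (SD, n = 3), Col4a1 with 3690 ± 333, Col1a2 with 3017 ± 1029, Col3a1 with 2855 ± 439 and Col4a2 with 2647 ± 265. These 5 levels overlapped between neighbours in the order. The lowest level in control was that of Col6a5, 0.86 ± 0.37 per kilobase.

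**Figure D2:**
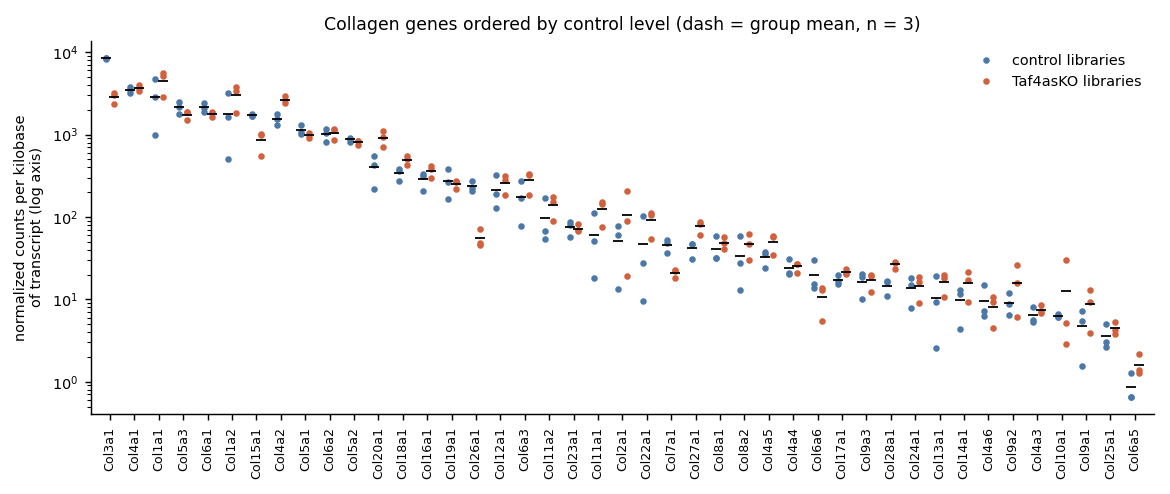
Normalized counts per kilobase of transcript (log axis) for each collagen gene in the 3 control libraries (blue) and the 3 libraries labelled Taf4asKO (orange), ordered by control mean, with a dash at each group mean. Col3a1 is the highest in control and lies below Col1a1, Col4a1 and Col1a2 in the libraries labelled Taf4asKO, and the points of Col1a1, Col1a2, Col11a1 and Col22a1 are spread widely in control.

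All collagen genes together made up 1.14%, 1.22% and 1.53% of normalized counts in the control libraries and 0.987%, 1.33% and 1.36% in those labelled Taf4asKO, so the summed level overlapped between the groups. What differed was the composition. Col3a1 supplied 32.9%, 26.6% and 24.0% of the collagen sum in the control libraries and 10.2%, 9.81% and 9.49% in those labelled Taf4asKO, without overlap. Col1a1 supplied 4.12%, 9.6% and 14.0% against 13.2%, 18.4% and 17.1%, with control replicate 3 within the range of the other group. These shares sum over whole genes and are not corrected for length.

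The fall with the highest level was that of a fibrillar collagen. Col3a1 encodes the only chain of collagen III, a fibril collagen of soft tissues and of the reticular network around muscle fibres. It had 46225, 47112 and 47700 normalized counts in the control libraries and 13082, 17573 and 16995 in those labelled Taf4asKO. The control libraries lay within a narrow range and all 3 others far below it. The means were 47012 ± 743 and 15883 ± 2443 (SD, n = 3), a fold of 0.335 and a log2 fold change of -1.58 (SE 0.13, adjusted p 0.000126, limma). Col3a1 was called in every alternative run, with log2 fold changes from -1.68 to -1.44. An exon stretch of 141 bases is shared with Gm47302 on the same strand. The study left out reads that overlap several genes, so reads over this stretch may be missing from the values.

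Col27a1, which encodes the single chain of a fibrillar collagen known from developing cartilage, moved the other way at a low level. Its normalized counts were 232, 358 and 360 in the control libraries and 460, 633 and 667 in those labelled Taf4asKO, again without overlap. It rose by 0.90 on the log2 scale (SE 0.20, adjusted p 0.0163, limma). The call was lost without replicate 2 of the libraries labelled Taf4asKO (0.83, adjusted p 0.083) and without replicate 3 of them (0.80, adjusted p 0.0796). Leaving out any library of that label lowered the calls over all genes from 2347 to between 960 and 1295, here and for the genes below. It was also lost for Col27a1 with the mean level of each of 4 marker lists as a covariate, at 0.53 with the fibro-adipogenic (limma adjusted p 0.055), 0.60 with the tenocyte (0.0652), 0.45 with the Schwann and glial (0.147) and 0.39 with the pericyte list (0.364). Of the 11 fibrillar genes, 1 was lower, 1 was higher and 9 were not called, with a median log2 fold change of 0.63, where 6.71% of all genes tested were lower and 5.93% higher. With the block 1 was lower and 6 were higher, against 8.98% and 9.09% of all genes.

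Collagen I did not pass, and its level varied widely within control. Col1a1, the main chain of the heterotrimer of collagen I, had 5792, 16979 and 27768 normalized counts in the control libraries and 16932, 32958 and 30693 in those labelled Taf4asKO. Its partner Col1a2 had 2712, 8646 and 17124 against 9898, 20309 and 18201. In both genes control replicate 1 was far below all other libraries and control replicate 3 lay among the libraries labelled Taf4asKO. The log2 fold changes were 0.88 (SE 0.47, adjusted p 0.249, limma) for Col1a1 and 1.06 (SE 0.54, adjusted p 0.223) for Col1a2. With the replicate number as a block both passed (adjusted p 0.00996 and 0.0103). Without control replicate 1 and without the block the log2 fold changes shrank to 0.25 for Col1a1 (limma adjusted p 0.646) and 0.34 for Col1a2 (adjusted p 0.569).

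A low replicate 1 in each group was also seen in other chains of fibrils. Col11a1, a chain of collagen XI that nucleates cartilage fibrils, had 138, 393 and 858 normalized counts in the control libraries and 586, 1115 and 1153 in those labelled Taf4asKO. Its log2 fold change was 1.34 (SE 0.53), not past the threshold without the block (limma adjusted p 0.127) and past it with the block (adjusted p 0.00234). Col11a2, the next chain of collagen XI, had 291, 368 and 926 against 478, 812 and 955, and Col2a1, the chain of cartilage collagen II, had 68, 395 and 309 against 98, 458 and 1057. These 2 genes also passed with the block (limma adjusted p 0.0236 and 0.0305). Within each group, replicate 1 was the lowest library for all 3 genes. The share of mitochondrial genes was also lowest in replicate 1. It was 11.1% against 20.7% and 15.7% in control, and 13.5% against 19.0% and 17.3% in the libraries labelled Taf4asKO. A link between these was not tested. Without control replicate 3, Col1a2 (1.67, limma adjusted p 0.0444), Col11a1 (1.96, adjusted p 0.0196) and Col11a2 (1.13, adjusted p 0.0264) also passed. Without control replicate 1 the values were lower, at 0.65 for Col11a1 (limma adjusted p 0.277), 0.30 for Col11a2 (adjusted p 0.666) and 0.054 for Col2a1 (adjusted p 0.973). The value of Col2a1 was 0.83 with all libraries and 0.065 without replicate 3 of those labelled Taf4asKO (limma adjusted p 0.972), and it was 1.31 without control replicate 2 and 1.77 without replicate 1 labelled Taf4asKO. Col24a1 had 56 to 129 normalized counts in control and 64 to 133 in the other group and was not called in either fit.

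**Figure D3:**
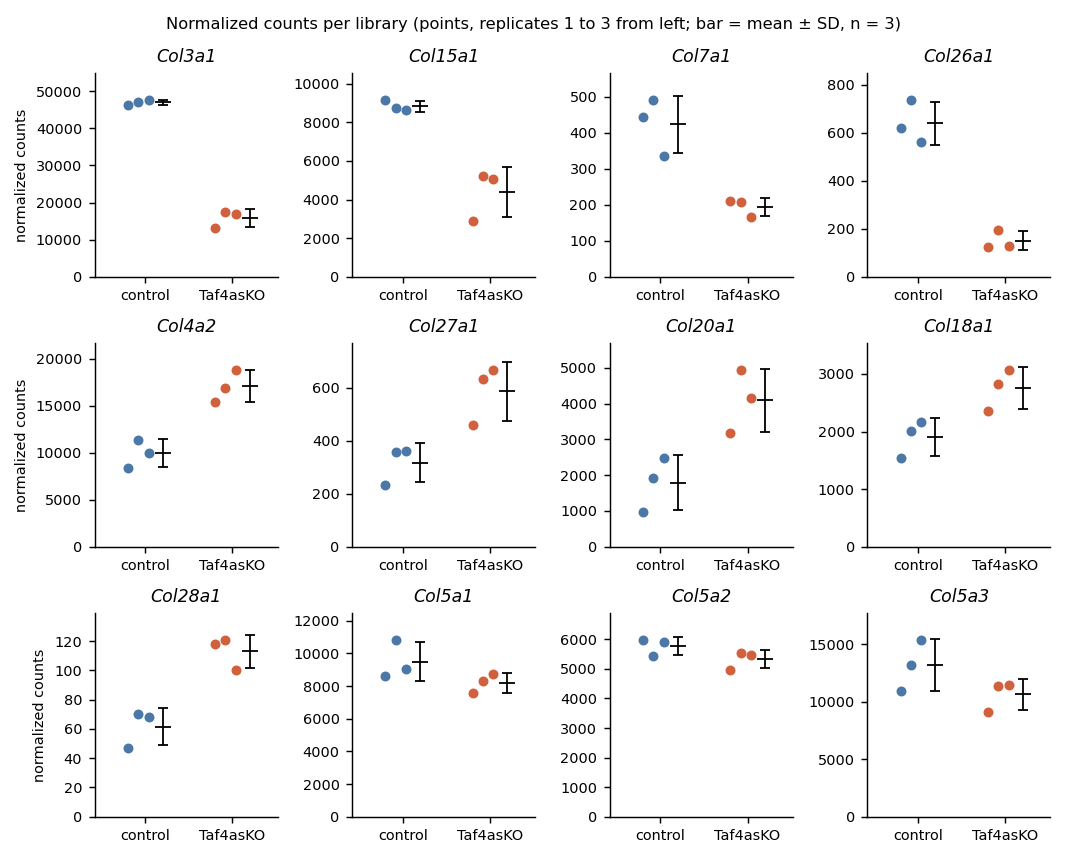
Normalized counts in each library for the 9 collagen genes past the threshold and for the 3 collagen V genes, with points for replicates 1 to 3 from left to right in each group and bars for the mean ± SD (n = 3). The control points of Col3a1 lie between 46225 and 47700 and those labelled Taf4asKO between 13082 and 17573, and the groups overlap for Col5a1, Col5a2 and Col5a3.

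Collagen V, the niche collagen of quiescent MuSCs, was abundant and did not pass in any of its chains. Col5a1, the chain present in most collagen V trimers, had 8601, 10836 and 9042 normalized counts in the control libraries and 7560, 8295 and 8731 in those labelled Taf4asKO. The groups overlapped in 1 library each, and the log2 fold change was -0.21 (95% interval -0.46 to 0.05, limma adjusted p 0.261). Col5a2, its usual partner, had 5984, 5427 and 5915 against 4968, 5525 and 5467, a log2 fold change of -0.12 (95% interval -0.33 to 0.09, adjusted p 0.439). Col5a3, a chain of a less common collagen V trimer, had 10914, 13229 and 15411 against 9091, 11365 and 11490, a log2 fold change of -0.30 (95% interval -0.62 to 0.02, adjusted p 0.199). The intervals of Col5a1 and Col5a3 reach past the fold limit of 1.3 on the lower side, so a fall of that size is not shown to be absent for them.

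The summed level of the collagen V genes was 25499, 29492 and 30368 normalized counts in the control libraries and 21619, 25185 and 25688 in those labelled Taf4asKO. The highest sum labelled Taf4asKO lay just above the lowest control sum. With the block, Col5a3 had an adjusted p of 0.0414 (limma) but stayed below the fold limit. With the mean level of the fibro-adipogenic or the tenocyte markers as a covariate, Col5a3 passed (log2 fold change -0.56, limma adjusted p 0.0189, and -0.53, adjusted p 0.0281). Calcr, the receptor for this collagen on MuSCs, had 1748, 1190 and 1826 against 1593, 1780 and 1538 normalized counts (log2 fold change 0.07, limma adjusted p 0.82). Of 7 listed genes of the Notch pathway, 0 were lower and 3 were higher, the Notch target genes Hes1 (0.95, adjusted p 0.0039), Hey1 (0.78, adjusted p 0.00831) and Heyl (0.57, adjusted p 0.0224). Over all genes tested 6.71% were lower and 5.93% higher.

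Col5a1 overlaps genes on the opposite strand over 212 exon bases, and whether reads were counted by strand is not stated. Col5a2 is the neighbour of Col3a1 on chromosome 1, with their 3′ ends 24615 bases apart. The ratio of Col3a1 to Col5a2 per kilobase went from 9.2, 10.3 and 9.6 in control to 3.14, 3.79 and 3.7 in the libraries labelled Taf4asKO. This ratio did not overlap between the groups (exact permutation p = 0.1, 0.18 adjusted over the 9 ratios).

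Basement membrane collagens differed within a pair. Col4a1 and Col4a2 encode the chains of the common collagen IV network and are assembled with a pair of the first chain for each of the second. Col4a2 had 8413, 11405 and 9985 normalized counts in the control libraries and 15429, 16949 and 18838 in those labelled Taf4asKO, without overlap. Col4a2 rose from 9934 ± 1497 to 17072 ± 1708 (SD, n = 3), with a log2 fold change of 0.79 (SE 0.13, adjusted p 0.0045, limma). Col4a1 had 21322, 24931 and 22765 against 22337, 24168 and 26722 (log2 fold change 0.08, 95% interval -0.17 to 0.34, adjusted p 0.678), so the groups overlapped and a rise as large as that of Col4a2 lies outside the interval of Col4a1.

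The difference within the pair can be restated as a ratio of the same values. Per kilobase, the ratio of Col4a2 to Col4a1 was 0.405, 0.469 and 0.45 in the control libraries and 0.708, 0.719 and 0.723 in those labelled Taf4asKO, with means of 0.441 ± 0.0331 and 0.717 ± 0.00757 (SD, n = 3). The groups did not overlap, and an exact two-sided permutation test gave p = 0.1, the smallest that 3 libraries against 3 allow (0.18 after adjustment over the 9 ratios compared). Both genes have a marked CCAAT box in the promoter windows shown above. With the pericyte markers as a covariate Col4a2 no longer passed (0.51, limma adjusted p 0.118).

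The other basement membrane chains were lower in level. Col4a3, Col4a4 and Col4a6 had 46 to 70, 203 to 309 and 42 to 100 normalized counts in control and 58 to 74, 213 to 275 and 30 to 70 in the other group, with overlap in each. Col4a5, a chain of the kidney-type network that is also made elsewhere, had 156, 235 and 246 against 225, 375 and 386. Its log2 fold change of 0.62 (SE 0.24) passed with the block (limma adjusted p 0.117 without and 0.00605 with it) and when replicate 1 labelled Taf4asKO was left out (0.87, adjusted p 0.0439), and was 0.41 without control replicate 1 (adjusted p 0.298). Of the 6 basement membrane genes, 1 was higher and 0 lower without the block, and 2 were higher with it, where 5.93% and 9.09% of all genes tested were higher, so that both counts rest on 1 or 2 genes. Their summed level was 30200, 36862 and 33475 in the control libraries and 38369, 41836 and 46340 in those labelled Taf4asKO, without overlap, and Col4a1 and Col4a2 made up most of it. Col4a3 overlaps C430014B12Rik on the opposite strand over 563 exon bases and is uncertain for that reason.

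FACIT collagens lie on the surface of fibrils. Of 9 genes, 1 was higher and 0 lower, and the median log2 fold change was 0.61, with 8 of 9 above 0, where 5.93% of all genes tested were called higher and 50.4% were above 0. With the block 3 were higher, against 9.09% of all genes. Col20a1, a little-studied FACIT chain and the most abundant of the class per kilobase, had 975, 1919 and 2493 normalized counts in the control libraries and 3176, 4945 and 4151 in those labelled Taf4asKO. The groups did not overlap, and Col20a1 rose by 1.27 on the log2 scale (SE 0.29, adjusted p 0.0195, limma). The call was lost under robust shrinkage of the variances (adjusted p 0.0884), without replicate 2 of the libraries labelled Taf4asKO (1.12, adjusted p 0.0931) and without replicate 3 of them (1.24, adjusted p 0.0715).

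Most of the Schwann cell and glial marker genes were higher as well. Their summed level was 1519, 3390 and 2513 normalized counts in the control libraries and 3673, 4496 and 4261 in those labelled Taf4asKO. Of these 6 markers 4 were called higher and 1 lower, and none was at 0 in any library, where 5.93% of all genes tested were higher and 6.71% lower. With their mean level as a covariate the log2 fold change of Col20a1 was 0.56 (limma adjusted p 0.17). The pericyte list as a covariate moved Col20a1 further, to 0.36 (adjusted p 0.437), and the fibro-adipogenic and tenocyte lists moved it to 0.64 (adjusted p 0.0164) and 0.72 (adjusted p 0.0181), where it stayed called. The values of Col20a1 thus moved with several marker lists, and the part of such cells was not tested beyond these fits.

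Col22a1, a FACIT collagen of tissue junctions such as that between muscle and tendon, showed the largest ratio between control libraries. It had 84, 243 and 900 normalized counts in the control libraries and 477, 941 and 977 in those labelled Taf4asKO. Control replicate 3 lay among the other group while control replicates 1 and 2 were below it. The log2 fold change of 1.52 (SE 0.66, adjusted p 0.162, limma) passed with the block (adjusted p 0.00798) and without control replicate 3 (2.40, adjusted p 0.00985), and was 0.70 without control replicate 1 (adjusted p 0.4). Col14a1, a FACIT collagen that limits the thickness of tendon fibrils, likewise passed with the block (adjusted p 0.0255), with 28, 75 and 85 against 60, 138 and 112. The log2 fold change of Col14a1 was 0.78 with all libraries and 0.29 without control replicate 1 (limma adjusted p 0.635). Col12a1, its close relative in dense connective tissue, had 1488, 2181 and 3736 against 2148, 3592 and 3266 and passed in neither fit. Col16a1 had 1072 to 1742 in control and 1559 to 2153 in the other group, Col19a1 had 704 to 1627 and 944 to 1156, and the chains of cartilage collagen IX (Col9a1, Col9a2 and Col9a3) had 6 to 61 and 15 to 76, all with overlap and none called.

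Membrane collagens gave no call in either fit. Col23a1 was the most abundant, with 495, 319 and 454 normalized counts in the control libraries and 462, 377 and 389 in those labelled Taf4asKO. Col17a1, a hemidesmosome component of epithelia, had 110, 86 and 94 against 116, 115 and 131, without overlap and without passing (limma adjusted p 0.248). Col13a1, which at the neuromuscular junction helps to anchor acetylcholine receptor clusters, had 8, 29 and 61 against 34, 62 and 58. Col25a1, which is needed for motor axons to enter developing muscle, had 7, 8 and 13 against 11, 14 and 10. These low counts limit what could be detected for the last 2 genes.

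The multiplexins moved in opposite directions. Col15a1, whose product links basement membranes to the fibrils around them and whose loss causes a mild myopathy in mice, had 9168, 8719 and 8636 normalized counts in the control libraries and 2876, 5242 and 5053 in those labelled Taf4asKO. Replicate 1 of the latter was the lowest. Col15a1 fell from 8841 ± 286 to 4390.3 ± 1315 (SD, n = 3), with a log2 fold change of -1.06 (SE 0.20, adjusted p 0.00744, limma). Col18a1, whose product carries the original endostatin fragment, had 1541, 2017 and 2158 against 2360, 2820 and 3073. It rose by 0.54 on the log2 scale (SE 0.14, adjusted p 0.0361, limma), and the call was lost without control replicate 1 (0.39, adjusted p 0.0927) and without replicate 2 (0.51, adjusted p 0.136) or 3 (0.45, adjusted p 0.15) of the libraries labelled Taf4asKO. Each marker covariate ended the call of Col18a1 too, with 0.27 for the fibro-adipogenic (limma adjusted p 0.162), 0.32 for the tenocyte (0.147), 0.25 for the Schwann and glial (0.33) and 0.20 for the pericyte list (0.573).

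Per kilobase, the ratio of Col15a1 to Col18a1 was 6.44, 4.68 and 4.33 in the control libraries and 1.32, 2.01 and 1.78 in those labelled Taf4asKO. The ratio of Col3a1 to Col1a1 was 8.51, 2.96 and 1.83 against 0.823, 0.568 and 0.59. Neither overlapped between the groups (exact permutation p = 0.1 each, 0.18 adjusted over the 9 ratios). Col1a1 to Col1a2 (1.72 ± 0.236 and 1.51 ± 0.0409, p = 0.4, exact permutation test), Col5a1 to Col5a2 (1.3 ± 0.236 and 1.21 ± 0.0397, p = 0.8) and Col5a3 to Col5a1 (1.92 ± 0.366 and 1.78 ± 0.117, p = 0.8) overlapped. The ratios within collagen I and within collagen V thus overlapped between the groups, and that within collagen IV did not. Those within collagen VI are given below.

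**Figure D4:**
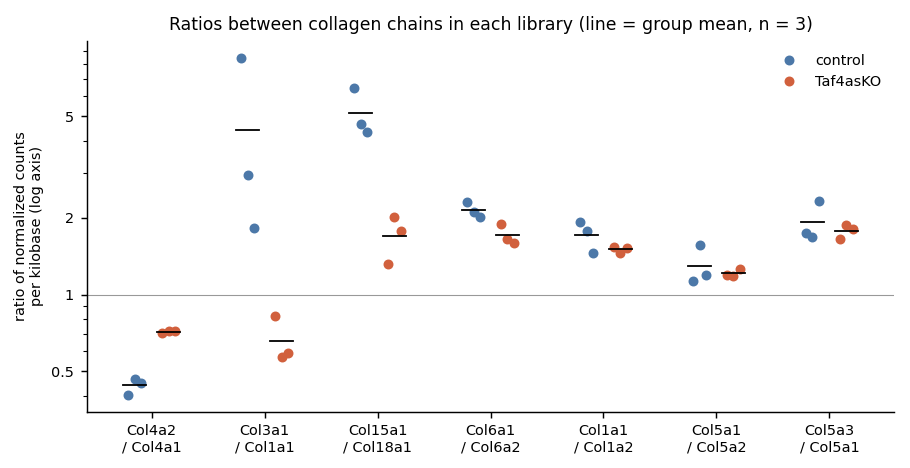
Ratio of normalized counts per kilobase (log axis) between pairs of collagen genes in each control library (blue) and each library labelled Taf4asKO (orange), with a line at the mean of the 3 libraries. The ratio of Col4a2 to Col4a1 is 0.405 to 0.469 in control and 0.708 to 0.723 in the other group, and the ratios within collagen I and collagen V overlap.

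Collagen VI, which forms beaded filaments around muscle fibres and is mutated in congenital muscular dystrophies, gave no call in the fit of all 6 libraries without a block or covariate. Col6a1 had 7609, 10046 and 8638 normalized counts in the control libraries and 6644, 7626 and 7555 in those labelled Taf4asKO (log2 fold change -0.26, SE 0.12, limma adjusted p 0.179). With the Schwann and glial markers as a covariate Col6a1 passed as a fall (-0.50, adjusted p 0.0241). Col6a2, its partner, had 3182, 4572 and 4144 against 3389, 4435 and 4554 (0.06, adjusted p 0.836). Their ratio per kilobase was 2.3, 2.12 and 2.01 in control and 1.89, 1.66 and 1.6 in the other group, without overlap (exact permutation p = 0.1, 0.18 adjusted). The ratio of Col6a3 to Col6a1 was 0.0424, 0.0684 and 0.13 against 0.114, 0.18 and 0.175, with overlap (exact permutation p = 0.2, 0.3 adjusted).

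Col6a3, the large chain of the classical collagen VI molecule, had 795, 1693 and 2763 against 1875, 3382 and 3251, with the order of libraries seen for Col1a2. It passed with the block (log2 fold change 0.82, limma adjusted p 0.186 without and 0.00394 with it) and without control replicate 3 (1.24, adjusted p 0.0422), and was 0.34 without control replicate 1 (adjusted p 0.469). Of the chains that can replace Col6a3, Col6a6 had 135, 121 and 263 against 48, 113 and 119, without overlap. Col6a6 passed with the block, as a fall (log2 fold change -0.90, adjusted p 0.144 without and 0.0226 with it), and also with the fibro-adipogenic (-1.45, adjusted p 0.0464) or tenocyte markers (-1.44, adjusted p 0.0358) as a covariate. The value of Col6a6 in the fit without block or covariate was closer to 0 without replicate 1 labelled Taf4asKO (-0.48, limma adjusted p 0.385) and without control replicate 3 (-0.56, adjusted p 0.376). Col6a5 had 6, 6 and 12 against 13, 12 and 20 and was not called.

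The short chain collagens were not called. Col8a1 and Col8a2, chains of the collagen VIII of vessel walls, had 161 to 301 and 57 to 255 normalized counts in control and 207 to 288 and 131 to 272 in the libraries labelled Taf4asKO. Col10a1, the collagen of hypertrophic cartilage, had 19, 19 and 21 in control and 9, 16 and 93 in the other group, where 1 library was far above the rest.

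All 3 genes outside the classes were called. Col26a1, which encodes a small collagen-like protein first described in testis and ovary, had 618, 737 and 563 normalized counts in the control libraries and 126, 196 and 130 in those labelled Taf4asKO. The groups were far apart, and Col26a1 fell from 639 ± 88.9 to 151 ± 39.3 (SD, n = 3), a fold of 0.233 and a log2 fold change of -2.10 (SE 0.18, adjusted p 0.000162, limma), the largest change of any collagen gene in size. Col7a1, the anchoring fibril collagen of the skin, had 444, 492 and 337 against 210, 207 and 166. It fell by 1.11 on the log2 scale (SE 0.17, adjusted p 0.00278).

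Col28a1, a collagen known from peripheral nerve, had 47, 70 and 68 against 118, 121 and 100 normalized counts and rose by 0.88 on the log2 scale (SE 0.21, adjusted p 0.0238, limma). Its call was lost without control replicate 1 (0.70, adjusted p 0.0569) and without replicate 1 (0.85, adjusted p 0.0871), 2 (0.83, adjusted p 0.112) or 3 (0.96, adjusted p 0.0669) of the libraries labelled Taf4asKO. Without a library of the latter group, 960 to 1295 of all genes were called, against 2347 with all 6 libraries and no block. Each of the 4 marker covariates also ended the call of Col28a1, with 0.68 for the fibro-adipogenic (limma adjusted p 0.135), 0.71 for the tenocyte (0.12), 0.58 for the Schwann and glial (0.192) and 0.46 for the pericyte list (0.405). Col26a1 and Col7a1 were called in every alternative run, with log2 fold changes from -2.31 to -1.99 and from -1.27 to -0.95. Col7a1 shares 36 exon bases with Mir711 on the same strand.

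The collagen genes differed widely in how much they varied between control libraries. The lowest of the 6 libraries was control replicate 1 for 25 of the 43 genes, as given above in percent. Of genes averaging 20 or more, control replicate 3 was at least 2-fold above control replicate 1 in 15 of 41 collagen genes (36.6%) and in 3.53% of 14004 genes. The ratio was 10.7 for Col22a1, 6.31 for Col1a2, 6.22 for Col11a1, 4.79 for Col1a1 and 3.48 for Col6a3. It was 1.03 for Col3a1, 0.942 for Col15a1, 0.911 for Col26a1, 1.07 for Col4a1 and 0.988 for Col5a2.

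Markers of tendon cells, summed, ranked the libraries in the same order as Col1a2, and most of the sum came from Thbs4 and Fmod. The summed level of the 6 tenocyte markers was 2055, 5937 and 14220 normalized counts in the control libraries and 7109, 16299 and 14579 in those labelled Taf4asKO. The tendon transcription factor Scx did not follow that order, with 168, 119 and 129 in the control libraries and 200, 162 and 121 in the others. From control replicate 1 to control replicate 3 the ratio was 0.768 for Scx, 2.37 for Mkx and 6.12 to 9.88 for the other 4 markers. None of the 6 was at 0 in any library, 0 were called without the block, and 4 were called higher with it, where 9.09% of all genes tested were. The plot of levels relative to the mean sets these sums beside collagen genes chosen after their values were seen. With the mean level of these markers as a covariate, the log2 fold change was -0.04 for Col1a1, -0.0041 for Col1a2 and -1.66 for Col3a1. The part of tendon cells in the collagen I values was not tested beyond this fit, which leaves few degrees of freedom.

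**Figure D5:**
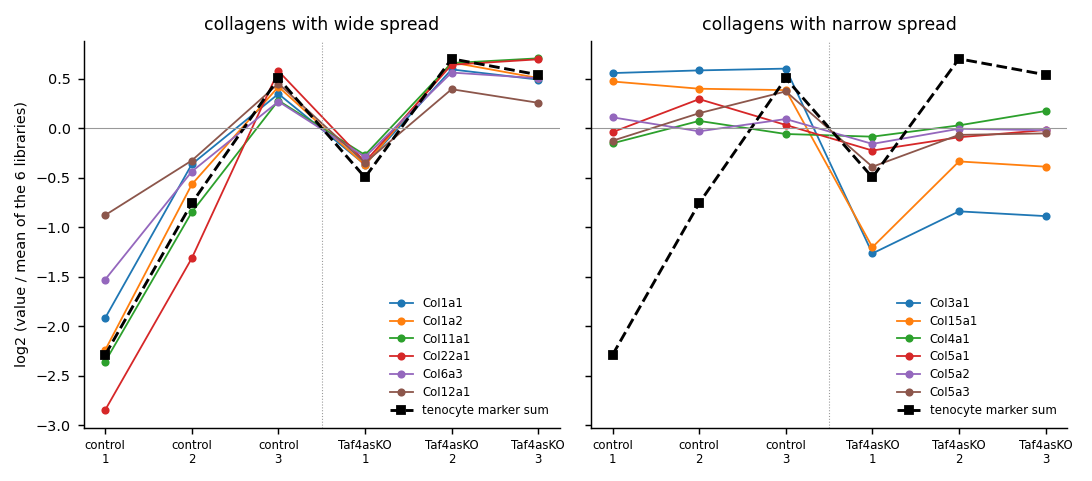
Log2 of the value in each library divided by the mean of the 6 libraries, for collagen genes with a wide (left) and a narrow (right) spread between control libraries, with the summed tenocyte markers as a dashed line in both panels. In the left panel Col1a1 goes from -1.92 in control replicate 1 to 0.35 in control replicate 3, as the marker sum goes from -2.29 to 0.50, and in the right panel Col3a1 stays between 0.56 and 0.60 in control.

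Markers of other cell types were summed in the same way. Fibro-adipogenic, endothelial and blood cells are those that the negative selection for SCA1, CD31 and CD45 is meant to remove. The purity that the study's reporting summary gives for sorted cells was not complete. The 10 fibro-adipogenic markers summed to 17918 to 24501 normalized counts in control and 28683 to 35476 in the libraries labelled Taf4asKO, mostly from Gsn, with Gsn called higher, Dpt called lower and 7 called higher in the blocked fit. The 6 pericyte and smooth muscle markers summed to 9485 to 14779 and 14765 to 17272, with 2 called higher (Rgs5 and Myh11) and 5 with the block. The 6 endothelial markers summed to 879 to 1277 and 1392 to 1700 (0 called, 2 higher with the block), the 3 of 6 blood markers analysed here to 422 to 538 and 666 to 924 (0 called, 1 with the block), and the 6 myofibre markers to 1211 to 3688 and 2097 to 2658 (0 called). Over all genes tested, 6.71% were lower and 5.93% higher without the block, and 9.09% higher with it. No marker tested was at 0 in any library. Several of these lists hold genes that MuSCs also express, and the part of such cells in the collagen changes was not tested beyond the covariate fits.

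Markers of the labelled cell type were present in all libraries. The 7 MuSC markers summed to 33397 to 34934 in control and 34994 to 37839 in the libraries labelled Taf4asKO, with Myf5, Itga7 and Cdh15 called lower and Vcam1 and Sdc4 called higher, where 6.71% of all genes tested were lower and 5.93% higher. Without overlap, 4 of the 7 were lower and 2 higher, against 16.4% and 16.6% of all genes. Pax7 had 12082, 12244 and 13007 against 10669, 10363 and 11164 (log2 fold change -0.21, limma adjusted p 0.161). Sdc4 alone had 5564 to 5814 in control and 9266 to 12662 in the other group. In the 4 fits that held the level of a marker list as a covariate, Col3a1 ranged from -1.68 to -1.66 and Col26a1 from -2.31 to -2.12 on the log2 scale, and both stayed called. Col15a1 stayed called in 3 of the 4 and had -1.13 (limma adjusted p 0.0588) with the pericyte markers.

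Genes that make, fold, process and crosslink collagen were examined beside the chains. Of 36 listed, 34 were tested, and 6 were lower and 4 higher (17.6% and 11.8%, limma), where 6.71% and 5.93% of all genes tested and 7.75% and 7.39% of tested protein-coding genes were. Lower were the collagen chaperone Serpinh1 (HSP47), which had 5341, 6685 and 4871 normalized counts in the control libraries and 3137, 3521 and 3540 in those labelled Taf4asKO (log2 fold change -0.72, limma adjusted p 0.00535), and the prolyl 3-hydroxylases P3h1 (-0.53, adjusted p 0.0113) and P3h2 (-0.62, adjusted p 0.0321) with Crtap (-0.53, adjusted p 0.0489), the partner of P3h1. The propeptidase Adamts14 (-0.60, adjusted p 0.0148) and the crosslinking oxidase Loxl1 (-0.73, adjusted p 0.0029) were also lower.

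Higher were P4ha1, a catalytic subunit of prolyl 4-hydroxylase (0.73, limma adjusted p 0.00408), the folding enzyme Fkbp7 (0.48, adjusted p 0.0364), the crosslinking enzyme Lox (1.59, adjusted p 0.0366) and the propeptidase gene Tll1. Tll1 had 1, 2 and 12 normalized counts in the control libraries and 34, 44 and 58 in those labelled Taf4asKO. Lox had 77, 233 and 358 against 539, 601 and 552, with control replicate 1 again the lowest. Genes of the same step therefore moved in both directions, as in prolyl hydroxylation, where 3 of 10 were lower and 1 higher. With the block 7 were lower and 6 higher (20.6% and 17.6%, against 8.98% and 9.09% of all genes tested). The genes added were the propeptidase Adamts2, lower (-0.65, limma adjusted p 0.114 without and 0.0177 with the block), and the collagen galactosyltransferase Colgalt2 (0.93, 0.053 and 0.0153) and the crosslinking oxidase Loxl2 (0.43, 0.104 and 0.0366), both higher. With a marker list as a covariate, 2 (fibro-adipogenic), 2 (tenocyte), 1 (Schwann and glial) and 1 (pericyte) of the machinery genes were higher and 5, 5, 5 and 4 lower. When 1 library was left out, 2 to 6 of the machinery genes were lower and 2 to 5 higher, with 2 or 3 lower and 2 higher in the fits missing a Taf4asKO-labelled library. Over all genes calls fell as well. They went from 2347 without block or covariate to 795 to 1505 with a covariate, and to 960 to 1295 without a Taf4asKO-labelled library.

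Of 12 tested collagen receptors, 0 were lower and 2 higher, Itga1 (the alpha 1 chain of a collagen-binding integrin, log2 fold change 1.17, limma adjusted p 0.011) and Adgrg6 (a receptor for collagen IV on Schwann cells, 1.03, adjusted p 0.00584). Itga1 had 347, 682 and 712 normalized counts in the control libraries and 1105, 1335 and 1305 in those labelled Taf4asKO, and Adgrg6 had 114, 185 and 158 against 283, 324 and 311. Neither overlapped between the groups. The 2 higher receptors were 16.7% of the list, against 5.93% of all genes tested. With the block 5 were higher, or 41.7% against 9.09%, the additions being the integrin chains Itga2 (limma adjusted p 0.0715 without and 0.00288 with the block) and Itga11 (0.193 and 0.0333) and the adhesion receptor Adgrg1 (0.122 and 0.0193).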

How the data were processed

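The collagen genes and the gene lists (collagen classes, collagen-making machinery, receptors, Notch genes and cell markers) were chosen with earlier results of these data known. The deposited values are a score: according to the study's methods and the submitters' processing notes, the authors trimmed single-end reads of stranded total RNA libraries (Trimmomatic 0.39), aligned them to mm10 (STAR 2.6.0c), removed reads that mapped to several places, counted reads over exons (featureCounts 1.6.0) and normalized with DESeq2 1.14.1. The quotients were rounded to whole numbers, as inferred from the values. Reads overlapping several genes were left out of the counts, and strand use in counting is not stated. Size factors (0.858 to 1.33) were recovered by maximum likelihood from the gaps between whole numbers in each column. Since the values are not raw reads, no count model was used. The table has 0 value columns without a sample, and 0 listed collagen symbols lacked a row.

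All 18562 genes with a mean of at least 5 were tested in both groups by a two-sided moderated linear model (limma 3.58.1, R 4.3.3, variance shrinkage with a mean-variance trend) of log2(value + 1), which understates changes of low genes, with Benjamini-Hochberg adjustment over all genes tested. A call needed an adjusted p under 0.05 and a fold of at least 1.3. On simulated data the test was checked before use. Intervals are 95% intervals of the fit. Ratios were compared with exact permutation tests. Gene positions are those of the table. Of its identifiers, 99.8% were found in GENCODE M21, which gave exon overlaps and transcript lengths, and 34 of the collagen members had the same position there. Promoter windows are from RefSeq.

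The replicate numbers come from the sample titles, which do not link them to a litter or day. Over genes, the departures from the group mean correlated at 0.235, 0.126 and 0.15 between control and Taf4asKO libraries numbered 1, 2 and 3. Between libraries of unlike number the correlations ran from -0.149 to 0.0141. A pairing by number was assumed from this for the fits with a block. These correlations are weak and come from the same values that the blocked fits test, so they do not establish pairs. Fits with the number as a block are given where they change a call of a collagen, machinery or receptor gene, and as counts for the marker lists. Named genes were chosen by rule: any collagen member, with all 6 values for called members, collagen V, trimer partners of called members and the 5 highest per kilobase, and called genes of the other lists with Calcr and Serpinh1. Named in addition were Pax7, Lyz2, Thbs4, Fmod, Scx, Mkx and the blood markers without a row. Alternatives were other scalings, filters, a pseudocount of 0.1, limma-voom on estimated reads, robust shrinkage, the block, a fibro-adipogenic covariate, other limits and leaving out each library. Covariates of tenocyte, Schwann and glial, and pericyte markers were added after the data were seen. Figures were drawn with matplotlib 3.10.9. Single genes of the Schwann and glial marker list are not reported here.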

Additional observations from a re-analysis of the deposited data

How the results depend on the processing

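Of 525 gene values under alternatives, 436 kept their direction and call, 36 lost the call, 21 gained it and 32 changed sign. Col3a1, Col7a1 and Col26a1 stayed called in all of them, and the count of lower collagen genes was 3 with the pericyte covariate and 4 to 6 in the others. With the replicate number as a block (an assumed pairing), 14 collagen genes were higher (5 without), 7 fibrillar genes passed (2), 2 basement membrane genes (1) and 3 FACIT genes (1). The block changed the call of no other collagen gene than those named, and removed none. A fold limit of 2 gave 1 higher collagen gene, 1 fibrillar, 0 basement membrane, and 0 lower and 2 higher machinery genes. An adjusted p under 0.01 gave 1 higher collagen gene, 1 fibrillar, 0 FACIT, and 2 lower and 2 higher machinery genes. Robust shrinkage gave 0 FACIT genes. Leaving out each library gave 1 to 10 higher collagen genes (10 without control replicate 3, 1 without replicate 2 or 3 of the libraries labelled Taf4asKO), 1 to 5 fibrillar, 1 to 2 basement membrane, 0 to 2 FACIT, and 2 to 6 lower and 2 to 5 higher machinery genes. The cause was not tested.

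With covariates, higher collagen genes were 2 (fibro-adipogenic), 2 (tenocyte), 1 (Schwann and glial) and 0 (pericyte). Collagen V genes past the threshold were 1 with each of the first pair. Fibrillar genes were 1 with the Schwann and pericyte lists, FACIT genes 0 with both, and basement membrane genes 0 with the pericyte list. Higher machinery genes were 2, 2, 1 and 1 in the order above. These fits also changed signs. With the fibro-adipogenic list the log2 fold change was -0.17 for Col1a1, -0.13 for Col1a2, -0.74 for Col2a1, -0.097 for Col11a2, -0.076 for Col14a1, -0.013 for Col4a1, -0.20 for Col6a2 and -0.019 for Col6a3. With the tenocyte list it was -0.038 for Col1a1, -0.0041 for Col1a2, -0.33 for Col2a1, -0.082 for Col11a2 and -0.13 for Col6a2. With the Schwann list it was -0.25 for Col1a1, -0.18 for Col1a2, -1.02 for Col2a1, -0.24 for Col14a1, -0.055 for Col4a1, -0.29 for Col6a2 and -0.031 for Col6a3. With the pericyte list it was -0.56 for Col1a1, -0.56 for Col1a2, -1.12 for Col2a1, -0.17 for Col11a1, -0.050 for Col11a2, -0.45 for Col14a1, -0.21 for Col22a1, -0.050 for Col4a1, -0.33 for Col6a2 and -0.27 for Col6a3. None of these sign changes was a called value. Col6a2 ranged from -0.090 to 0.20 when 1 library was left out. Scaling moved the median of all genes to no further than -0.034 on the log2 scale. Over all genes, 850 passed at a fold limit of 2, 876 at an adjusted p under 0.01, 1199 with the fibro-adipogenic, 1123 with the tenocyte, 1505 with the Schwann and 795 with the pericyte list, 960 to 3121 when 1 library was left out, and 2347 without a change. Depth limits the low genes: 2 of the 43 collagen genes, Col25a1 and Col6a5, had a mean under 20, where the rounding of the values and the added pseudocount weigh most.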
